A study of Rattus norvegicus with 5 samples.

Results

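The endothelin system was followed through 5 rat genes: the peptide precursors Edn1 and Edn3, the receptors Ednra and Ednrb, and the converting enzyme Ece1. The genes were found by matching the accessions printed in the array files to RefSeq transcripts. All 5 of 5 genes were on the array, with 6 probes among 30366, and the array gave 15161 named genes in all. The set was chosen by name with the measured knockdown difference of Edn1 in view, so the levels of these genes and their differences on these arrays are a description and no test. BRL-3A, a line from Buffalo rat liver that the labels call normal hepatocyte cells, was profiled on one-colour arrays with 1 array per group, in a series on Tmub1, a ubiquitin-like membrane protein, and transcription in liver cells. The 5 groups were cells given a Tmub1-overexpression lentivirus, cells given a Tmub1-knockdown lentivirus, cells given the negative control virus of each, and normal cells with no virus. RNA was taken 48 h after transduction. The promoters, inserts and hairpin sequences of the viruses are not given in the sources used here.

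Endothelins are short peptides cut from longer precursors, first by furin-type proteases and then by endothelin-converting enzymes. They act through the G protein-coupled receptors ETA, which prefers endothelin-1, and ETB, which binds all endothelins alike and also clears them. In liver, endothelin-1 is known mainly as a product of sinusoidal endothelium and of activated stellate cells, on which it acts as a contractile signal. Endothelin-3 and ETB are best known for the development of neural crest cells, melanocytes among them.

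Promoter windows from 250 bases before to 50 bases after the annotated start were available from RefSeq (build GRCr8) for 4 of the 5 genes. The windows of Edn1 and Ece1 are shown because these genes were the only members read well above background on all 5 arrays, one spanning a 39.7-fold range and the other 2.28-fold. The Edn1 window lies on the minus strand at chr17:22666638-22666937 and the Ece1 window on the plus strand at chr5:155360781-155361080. Capitals mark the letters searched for.
Edn1: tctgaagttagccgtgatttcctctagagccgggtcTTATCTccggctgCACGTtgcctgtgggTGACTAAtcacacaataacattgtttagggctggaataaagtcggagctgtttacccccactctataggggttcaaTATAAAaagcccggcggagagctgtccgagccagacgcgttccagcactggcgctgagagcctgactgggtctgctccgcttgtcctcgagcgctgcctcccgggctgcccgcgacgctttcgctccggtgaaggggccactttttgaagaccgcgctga
Ece1: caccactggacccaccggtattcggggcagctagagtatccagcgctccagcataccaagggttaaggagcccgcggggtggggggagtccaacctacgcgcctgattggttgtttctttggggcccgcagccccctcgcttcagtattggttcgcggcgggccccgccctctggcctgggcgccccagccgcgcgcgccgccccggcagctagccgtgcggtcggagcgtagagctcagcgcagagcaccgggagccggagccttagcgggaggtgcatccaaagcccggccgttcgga
Searched on both strands were TGANTCA and TGACTAA of the AP-1 type, AGATAA for GATA factors, ACGTG of hypoxia response elements, and the TATA box letters TATAAA. In the Edn1 window AGATAA was found on the opposite strand with its leftmost letter 214 bases before the start, ACGTG on the opposite strand at 201, TGACTAA at 186 and TATAAA at 110. These matches did not overlap, and TGANTCA was not in the window. Of 33469 promoter windows, 11.6% held AGATAA, 19.3% ACGTG, 2.34% TGACTAA, 14.2% TATAAA and 7.33% TGANTCA. None of these letters was in the windows of Ece1, Ednra or Ednrb. G and C made up 57.3% of the Edn1 window and 69.3% of that of Ece1, against a median of 51.7% over all windows. A match describes the letters only.

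The arrays differed in brightness. Each held 42877 non-control spots, of which 419 to 731 were flagged by the scanner software and left out, and none was saturated. The median processed signal ranged from 116 to 356, and 67.0% to 86.6% of probes were well above background. Levels are given as the log2 of the processed signal minus the 75th percentile of that array, so 0 is a bright gene of its own array, and levels of different probes are not compared. Tmub1 checked the labels: its level was 0.08 in normal cells, 0.37 in the overexpression negative control and 0.45 in that of knockdown, against 0.44 with overexpression and -1.42 with knockdown. It was thus low on the knockdown array alone, and its overexpression was not seen by the 1 probe of the gene. All 4 transduced arrays were scanned together and the array of normal cells in another scan, so virus and scan cannot be told apart in differences from normal cells. Of 8 hepatocyte markers, 6 or 7 were well above background on each array, but albumin (Alb) on 2 of 5 arrays only, while 7 or 8 of 8 stellate cell and fibroblast markers were.

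Edn1 encodes the precursor of endothelin-1. Its probe is printed 10 times on each array, which gives the spread of the spot reading within an array. The processed signal of the spots ran from 456 to 548 in normal cells, with a median of 493. In the overexpression negative control it ran from 242 to 339 with a median of 322, and with overexpression from 104 to 126 with a median of 109. In the knockdown negative control it ran from 53.5 to 104 with a median of 91.5, while with knockdown 9 spots ran from 6702 to 7654 with a median of 7091. The knockdown array was the bright one before scaling and remained so after it. The tenth knockdown spot read 2057 and had been flagged by the scanner software. All spots used were well above background.

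After scaling, the level of Edn1 was -1.45 in normal cells, -0.87 in the overexpression negative control, -2.58 with overexpression, -2.98 in the knockdown negative control and 2.33 with knockdown. The SD between spots of 1 array was 0.07 with knockdown, 0.08 in normal cells, 0.09 with overexpression, 0.18 in the overexpression negative control and 0.27 in the knockdown negative control, the dimmest array for this gene. The scanner software's own error, taken as the root mean square over the spots of an array, was 0.14 to 0.15. It is that of a single spot and was not reduced for the number of spots averaged. In order, knockdown was highest, followed by the overexpression negative control, normal cells, overexpression and the knockdown negative control. The gaps between neighbours were 3.20, 0.58, 1.13 and 0.40 log2. Only the last lay within 1.96 scanner errors, so by this single-spot error overexpression and the knockdown negative control were not separated for Edn1. Their spots did not overlap, however, the nearest being 0.04 log2 apart. The spots of no neighbouring arrays in this order overlapped. These spreads are technical. With 1 array per group there is no spread between cultures, and no p-value is given.

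**Figure D1:**
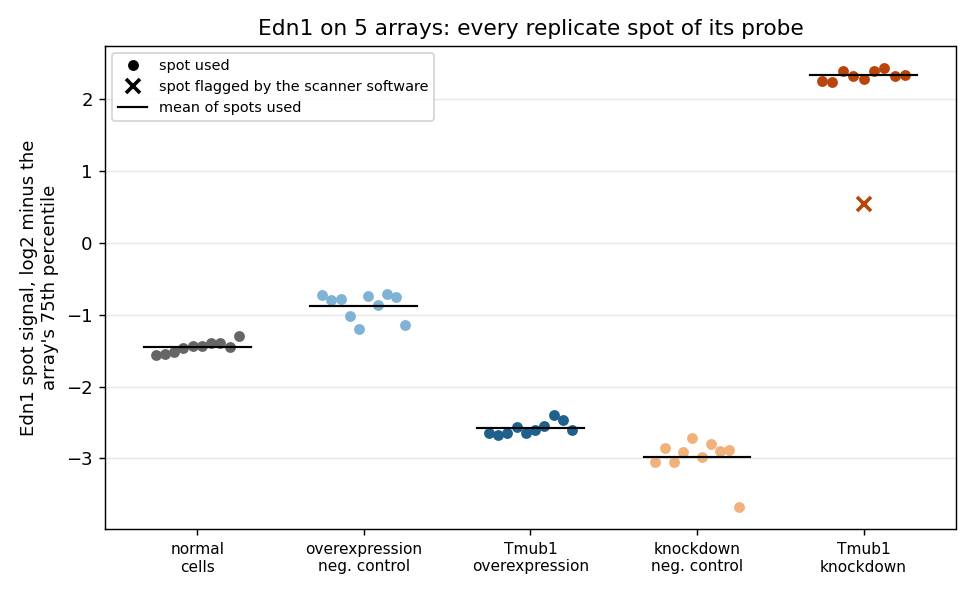
Spots of the Edn1 probe on each array (y axis: log2 processed signal minus the array's 75th percentile). Points are spots used, the cross is a flagged spot and lines are array means. The 9 knockdown spots lie between 2.24 and 2.43, and the highest spot of any other array lies at -0.71.

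Against its own negative control Edn1 was 39.7-fold higher with knockdown, a log2 difference of 5.31 with an interval of 4.90 to 5.72 from scanner error. The median over all genes was -0.23 in this comparison, and Edn1 ranked 3 from the top of 12780 callable genes. A gene is counted as callable here if it was well above background on either array, also where the bound left no readable difference. Edn1 was 9.21-fold above the overexpression negative control (3.20 log2) and 13.7-fold above normal cells (3.78 log2), ranks 153 and 118 from the top. The difference from its own negative control thus held a part that lay between the controls, since the knockdown negative control stood 4.32-fold below the other negative control and 2.89-fold below normal cells. These comparisons share the knockdown array and are not independent. The smallest of these knockdown differences was 9.21-fold, and the widest gap among the 3 control arrays was the 4.32-fold between the negative controls. As Edn1 was chosen with its knockdown difference in view, setting these values side by side tests nothing.

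Edn1 under overexpression was 3.26-fold below its negative control, at -1.71 log2 (interval -2.11 to -1.30), rank 53 from the bottom of 11846 callable genes. It was 2.19-fold lower than in normal cells. Against the knockdown negative control the difference turned, with overexpression 1.32-fold higher (0.40 log2, interval -0.01 to 0.82). The overexpression level of -2.58 lay between those of the knockdown negative control and normal cells, that is, inside the range of the 3 controls. With normexp background correction the fold was 2.49, short of 2.5-fold.

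Ece1, which cuts big endothelin to the active peptide, was well above background on all 5 arrays and has 1 spot per array. Its processed signal was 558 in normal cells, 338 in the overexpression negative control, 293 with overexpression, 184 in the knockdown negative control and 438 with knockdown. The levels after scaling were -1.27, -0.72, -1.18, -1.90 and -1.69 in the same order, so the knockdown array and its negative control were the low ones. Knockdown and its negative control were not separated: the difference was 0.21 log2 (interval -0.19 to 0.61). Against the overexpression negative control knockdown was 1.97-fold lower, and against normal cells 1.35-fold lower. Overexpression was 1.38-fold lower than its negative control (interval of the log2 difference -0.87 to -0.06) and 1.06-fold higher than normal cells. The widest gap for Ece1 lay between the negative controls, at 2.28-fold. Its range over the 5 arrays, 1.19 log2, was below the median range of 1.44 over 10676 genes well above background throughout, and 34.8% of those genes had a smaller one. For Edn1 the range was 5.31 log2, and 59 genes had a larger one.

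The receptors and Edn3 were at or near background. Ednra encodes the ETA receptor and has 2 probes. On its brighter probe the processed signal was 9.94 in normal cells, 14.2 in the overexpression negative control, 9.12 with overexpression, 9.35 in the knockdown negative control and 21.8 with knockdown, and only the 14.2 and 21.8 counted as well above background. Scaled, these were levels of -7.08, -5.29, -6.19, -6.20 and -6.02. Sorted by level, the order was the overexpression negative control, knockdown, overexpression, the knockdown negative control and normal cells, and no neighbours in it differed beyond 1.96 scanner errors. Between knockdown and its negative control no difference could be read, because the lowest level well above background on the control array, -5.92, was higher than the knockdown level of -6.02. With overexpression Ednra was at least 1.48-fold lower than in its negative control, and the knockdown negative control at least 1.56-fold lower, both within 1.96 scanner errors. Its level in the overexpression negative control was at least 2.64-fold above normal cells by the bound, which leaves out the scanner error of 0.52 log2. The difference as read was 1.79 log2, with an interval of 0.77 to 2.81 from scanner error, and normal cells were scanned apart. The other Ednra probe, with signals of 2.99 to 6.001, was not well above background on any array.

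Ednrb encodes the ETB receptor. Its signal was 8.35 in normal cells, 3.47 in the overexpression negative control, 2.57 with overexpression, 2.49 in the knockdown negative control and 2.78 with knockdown. Edn3 encodes endothelin-3. Its signal was 3.45, 3.59, 2.996, 2.64 and 5.70 in the same order of arrays. Neither gene was well above background on any array, so no order or fold is given. The probes do not show that the transcripts are absent, only that they were not detectable at this signal. In these data the ligand Edn1 and the enzyme Ece1 were therefore the measured members, beside a weak Ednra signal on 2 arrays.

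**Figure D2:**
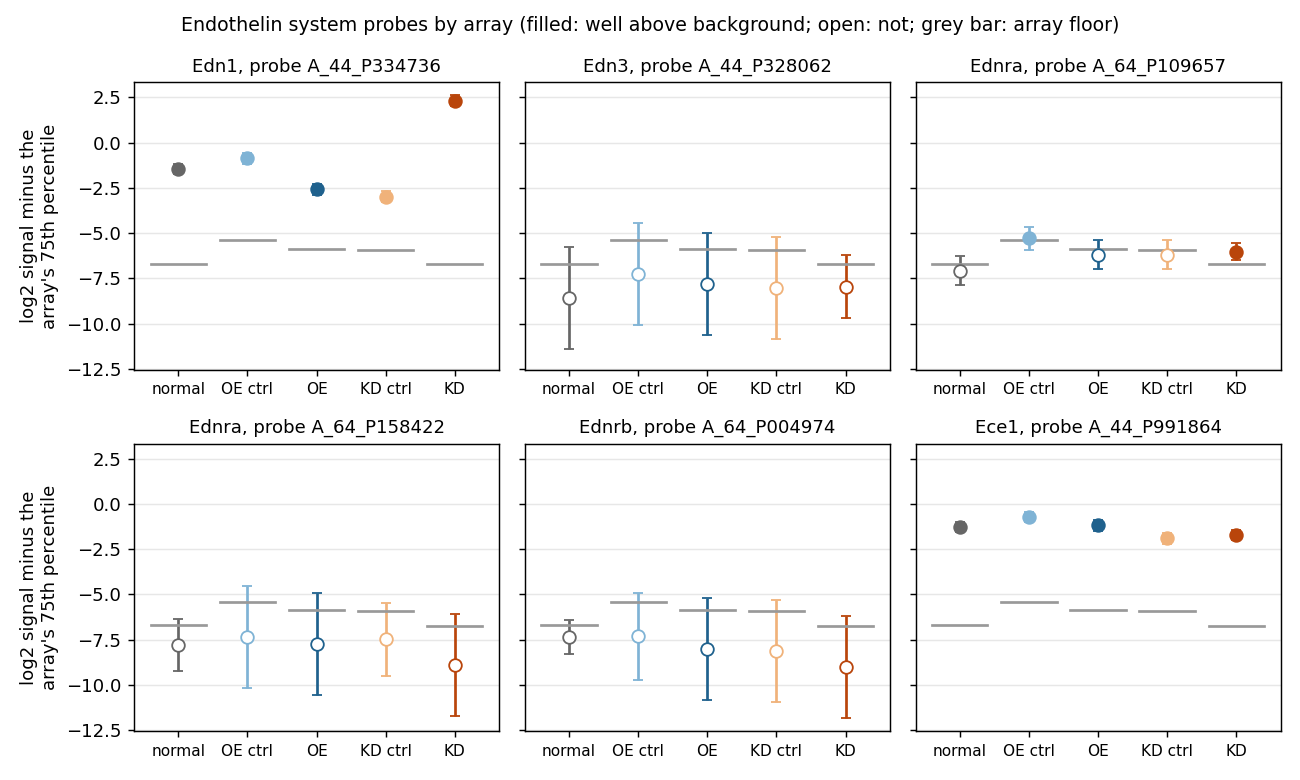
Level of each of the 6 probes on the 5 arrays (OE for overexpression, KD for knockdown, ctrl for the negative control). Points are levels in log2 units with bars of 1.96 scanner errors, open points are not well above background, and grey bars are the lowest level well above background on that array. Edn1 and Ece1 are filled throughout, Ednra on 2 arrays on 1 probe, and Ednrb and Edn3 on none.

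The 2.5-fold threshold of the series' design text was used to count calls, with the brighter value well above background. In knockdown against its negative control 8.44% of genes were called higher and 10.0% lower. Of the 5 endothelin genes 3 had a brighter value well above background there, Ednra without a readable difference, and 1, Edn1, was called higher and 0 lower. In overexpression against its negative control 1.71% of genes were called higher and 1.00% lower. Edn1 was the 1 member called lower of 3 callable, with 0 higher. The negative controls themselves differed, with 5.18% of genes higher and 3.36% lower in the knockdown negative control, and Edn1 was again the 1 of 3 callable members called lower there. As Edn1 was chosen for these differences, nothing is read from its share. Of called genes in the knockdown comparison 45.7% were higher, against 71.2% when arrays were scaled on probes above background throughout, 56.0% with cyclic loess and 33.9% with normexp. For overexpression the share was 62.9%, against 51.8% with quantile normalization, 51.4% in the authors' values and 49.4% with normexp. Between the negative controls it was 60.7%, and 46.4% with normexp. The median over all genes with knockdown moved between -0.47 and 0.08 log2 over these scalings, and Edn1 stood 5.09 to 5.86 log2 above it in each.

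**Figure D3:**
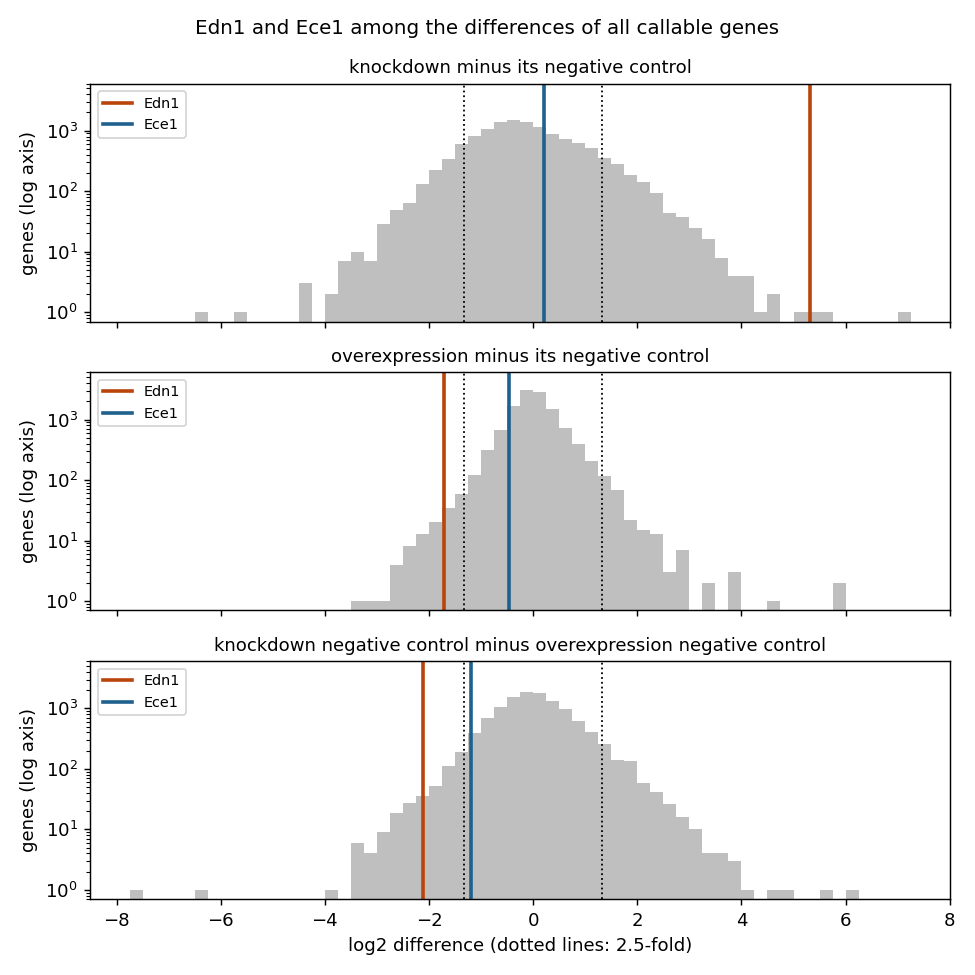
Number of callable genes (log axis) by log2 difference in bins of 0.25, for knockdown and overexpression against their own negative controls and for the negative controls against each other. Lines mark Edn1, at 5.31, -1.71 and -2.11, and Ece1, at 0.21, -0.47 and -1.19, and dotted lines mark 2.5-fold.

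The steps before the receptor were read from a list of 12 other genes of endothelin supply, processing and clearance, 10 of them named on the array and 9 callable. With knockdown 1 was higher and 3 were lower, beside 8.44% and 10.0% of all genes. The list median was -0.52 against -0.23 over all genes. Mme, the membrane protease neprilysin that degrades endothelin-1, was 3.23-fold higher, with a level of 0.14 against -1.55 in its negative control and -1.84 and -2.04 in the other negative control and normal cells. The proprotein convertase Pcsk7 was 5.03-fold lower, at -4.12 against -1.79, and its levels in the remaining arrays were -1.65 to -1.77. Furin, the convertase of the first cleavage, was 2.60-fold lower, at 2.60 against 3.98, and 4.02 to 4.27 on the other arrays. Furin was called under 1 of 6 scalings, its difference lying between -0.69 and -1.38 log2. The mast cell chymase Cma1 was 4.83-fold lower against its own negative control, while it stood at -0.81 log2 to the other and at 3.95 to normal cells. With overexpression 0 of 8 callable genes were called in either direction, where 1.71% of all genes were higher and 1.00% lower. The list median was 0.12.

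Signalling behind the receptors runs through Gq and phospholipase C to calcium and protein kinase C, and through G12 and G13 to RhoA and its kinases. Of 35 listed genes 33 were named on the array and 31 callable. With knockdown 6 were higher and 2 lower, beside 8.44% and 10.0% of all genes. The list median was 0.02 against -0.23 over all genes. The RhoA kinase Rock2 was 4.75-fold, the RhoA exchange factor Arhgef12 4.66-fold, Rhoa itself 3.60-fold and the phospholipase Plcb3 3.16-fold higher. Against normal cells Plcb3 was at 0.74 log2 and was not called. Rhoa had a level of 2.79 with knockdown and 0.57 to 0.94 on the other 4 arrays, and Rock2 -0.92 against -3.17 to -2.42. The knockdown array was thus the highest for both. Plcb4 and the calcium channel Itpr2, named after their values were seen, were the remaining higher genes, at 1.60 and 1.49 log2. Plcb4 stood at 0.46 to the overexpression negative control and 0.31 to normal cells, and Itpr2 at -0.18 and 0.06, so neither was called there. The kinase Ptk2b was 2.68-fold lower while its other probe, well above background throughout, gave 0.92 log2, and the arrestin Arrb2 was 2.57-fold lower. Ptk2b was called under 1 of 6 scalings and Arrb2 under 2. Rhoa was called under all 6, whereas Rock2, Arhgef12 and Plcb3 were not called with normexp, under which 1 gene of the list was higher and 2 were lower; scaling on probes above background throughout gave 9 higher and 0 lower.

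Against the overexpression negative control 11 of the 31 signalling genes were higher with knockdown and 7 lower, where 13.2% and 15.6% of all genes were. Against normal cells 5 were higher and 4 lower, beside 11.2% and 19.3% of all genes. With overexpression against its negative control the calcium channel Itpr3 was the 1 gene called, 3.09-fold higher. Of all genes 1.71% were called higher and 1.00% lower there. The difference of Itpr3 from the other negative control was -0.29 log2, however, and with normexp it was not called. The Gq subunit Gnaq had differences of 1.21 log2 with knockdown and 1.04 with overexpression, below the threshold in both.

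Factors known to act on the Edn1 promoter formed a list of 15 genes, 12 named on the array. With knockdown 2 of 12 callable genes were higher and 0 lower, beside 8.44% and 10.0% of all genes. The list median was 0.42 against -0.23 over all genes. The TGF-beta signal transducer Smad2 was 4.83-fold higher, with a level of -0.54 against -2.81 in its negative control and -3.47 to -2.75 on the remaining arrays. The AP-1 subunit Jun was 3.12-fold higher, at 0.74 against -0.90, and lower still, at -2.52 to -1.44, on the other 3 arrays. Both were called under all 6 scalings. Its partner Fos had a difference of -1.01 log2, Hif1a, the oxygen-regulated factor, 0.18, and the endothelial factor Klf2 -0.12. With overexpression Hif1a was 2.93-fold and Smad4, the shared SMAD, 2.87-fold higher than in the negative control, of 11 callable genes, and 0 were lower. Over all genes 1.71% were called higher and 1.00% lower. Neither Hif1a nor Smad4 was called with normexp. Against the other negative control Hif1a was at -2.05 and Smad4 at -0.14 log2. Between the negative controls 6 of 11 callable genes of this list were higher in the knockdown negative control, beside 5.18% of all genes. The list median was 1.41. With normexp 3 were higher, with a median of 0.88. The list was not sorted by whether a factor raises or lowers Edn1, so nothing on Edn1 is read from these counts.

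Other vasoactive systems gave 29 genes, all named on the array, of which 27 were callable with knockdown. Of these 5 were higher and 1 lower, beside 8.44% and 10.0% of all genes. The list median was 0.04 against -0.23 over all genes. Nppb, the precursor of the natriuretic peptide BNP, was 12.0-fold higher, with a level of -0.84 against -4.42 in its negative control and -5.64 to -3.77 on the other arrays. The natriuretic clearance receptor Npr3 was 8.56-fold higher, at 0.37 against -2.73, but its level in normal cells was -0.24. Ramp3, a partner of the adrenomedullin receptor, was 5.63-fold higher, at 1.21 against -1.28. Adm, the precursor of the vasodilator adrenomedullin, was 4.06-fold higher, at 2.79 against 0.77. The prostacyclin synthase Ptgis, named after its value was seen, was the fifth, at 1.89 log2, but at 0.84 to the overexpression negative control and 0.57 to normal cells. Nppb, Npr3, Ramp3 and Adm were called under all 6 scalings. Against the other negative control their differences were 3.03, 2.23, 2.41 and 1.13 log2, that of Adm falling short of 2.5-fold. The angiotensin precursor Agt was 2.70-fold lower and was called under 4 of 6 scalings, while knockdown stood at -0.45 log2 to the overexpression negative control and at 2.62 to normal cells. With overexpression the angiotensin receptor Agtr2 was the 1 gene called of 25, at least 4.78-fold higher. Over all genes 1.71% were called higher and 1.00% lower there. Agtr2 was not called with normexp, nor against the other negative control, at 1.05 log2.

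**Figure D4:**
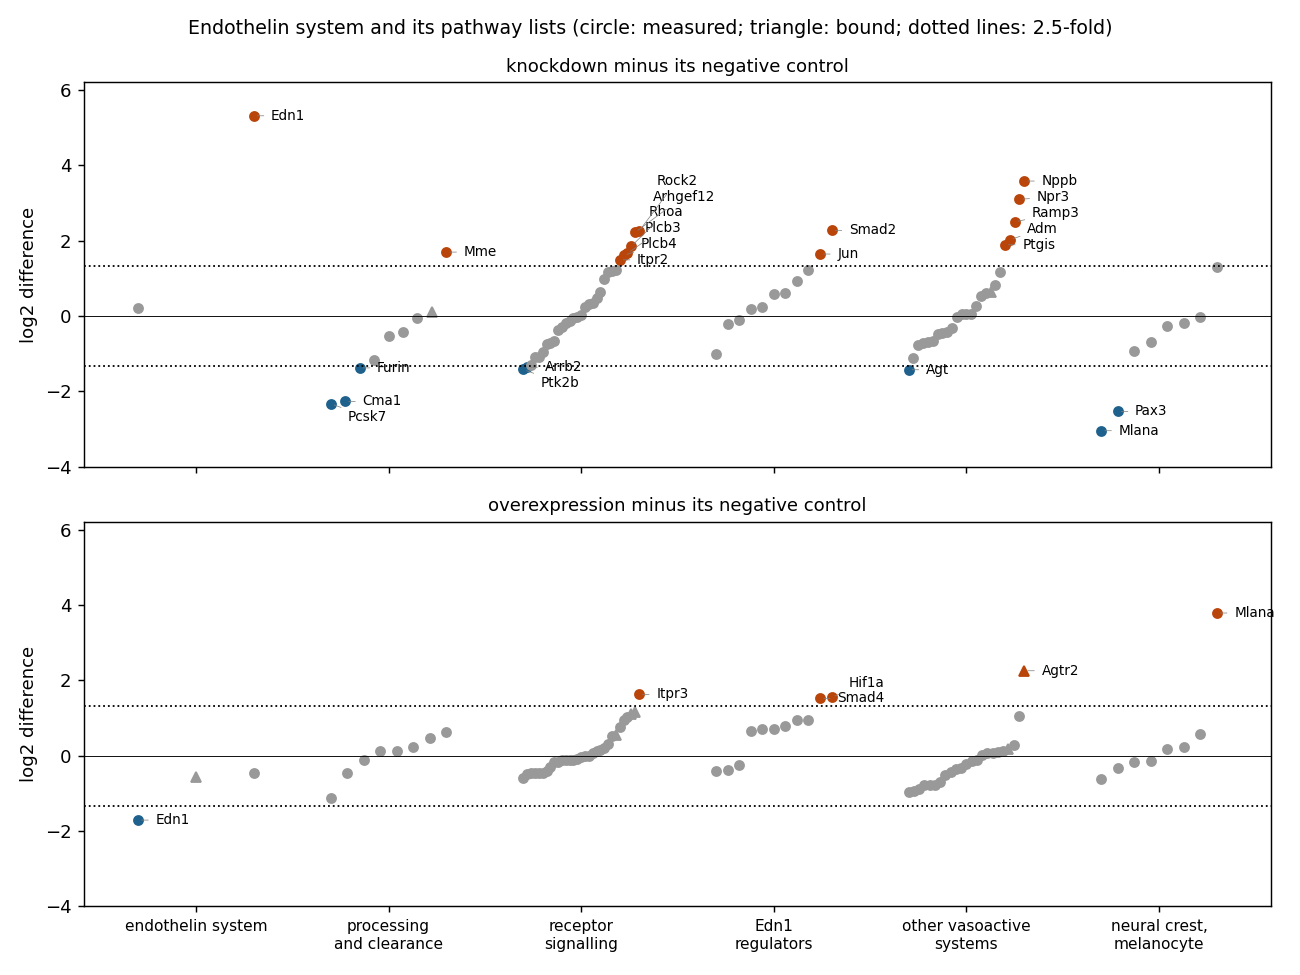
Log2 difference (y axis) of each readable gene of the endothelin system and of the lists named on the x axis, for knockdown and overexpression against their own negative controls. Dotted lines mark 2.5-fold, called genes are coloured and named, and triangles are bounds. Edn1, at 5.31 with knockdown, is the highest point of that panel.

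Genes of the neural crest and melanocyte axis that Edn3 and Ednrb serve were 14, with 11 named on the array. With knockdown 0 of 8 callable genes were higher and 2 were lower, beside 8.44% and 10.0% of all genes. The melanosome protein Mlana was 8.27-fold lower, and Pax3, a neural crest transcription factor, 5.80-fold lower, its other probe not being well above background on any array. With overexpression 1.71% of all genes were called higher and 1.00% lower, and Mlana, 13.8-fold higher, was the 1 call of 9 genes. Its levels were -5.11 in normal cells, -1.74 in the overexpression negative control, 0.66 in that of knockdown, 2.05 with overexpression and -2.39 with knockdown. Knockdown and the overexpression negative control, -0.65 log2 apart, were not called different, and against normal cells knockdown was at 2.72 log2. Sox10, which works upstream of Ednrb, had levels of -0.05 to 2.35 on the 4 arrays that read it.

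Markers of cell types that could supply these transcripts were read on the same arrays, where fewer cells of a type and less RNA per cell cannot be told apart. Of 12 endothelial markers 10 were named on the array, and 9 were well above background on each transduced array and 7 in normal cells. Their summed level was 1.91 in normal cells, 2.18 in the overexpression negative control, 0.73 in that of knockdown, 1.21 with overexpression and 1.36 with knockdown. A summed level is the log2 of the sum of unlogged levels, so the brightest probes of a list weigh most in it. The endothelial receptor Tek was 3.22-fold higher with knockdown, but was not called with normexp, nor against normal cells, at 0.90 log2. The endothelial factor Erg was at least 6.29-fold lower while its other probe was below background on both arrays, and Nos3, the endothelial nitric oxide synthase, was at 0.81 log2. The median of the endothelial list was 0.26 log2 with knockdown against its own negative control, and -0.37 there with normexp. It was -0.42 against the overexpression negative control and 0.58 against normal cells. With overexpression the median was -0.60 against its own negative control, but 0.21 against the knockdown negative control and 0.23 against normal cells. Of the 5 smooth muscle markers Tagln was 7.06-fold and Myh11 3.49-fold higher with knockdown. Myh11 was not called with normexp, nor against the overexpression negative control, at 0.89 log2. The smooth muscle list median was 0.82 log2 with knockdown, but 0.01 against the overexpression negative control. Against normal cells it was -0.55, with 2 markers called higher and 1 lower. Their summed level was 4.32 with knockdown and 3.89 to 4.59 on the other arrays. The summed level of the 8 stellate cell and fibroblast markers was 7.90 with knockdown and 8.39 to 9.105 on the other arrays. The median of this list was -0.68 log2 with knockdown and -1.07 against the overexpression negative control, but 0.20 against normal cells. Pdgfrb was 4.19-fold lower with knockdown, but its level lay -1.18 log2 from the overexpression negative control and 0.40 from normal cells. Of the 8 hepatocyte markers Ahsg was 6.24-fold and Alb at least 4.66-fold lower with knockdown. Alb was not called with normexp, nor readable against the other negative control or normal cells. Of 4 macrophage markers on the array 0 were called in either direction with knockdown or overexpression. Over all genes 8.44% were called higher and 10.0% lower with knockdown, and 1.71% and 1.00% with overexpression. The part of these cell types in the levels of Edn1 and Ece1 was not tested.

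Genes with the pattern most like each measured member were found by Euclidean distance between levels centred on their own mean over the 5 arrays, among 10676 genes well above background throughout. Nearest to Edn1 were the transcription factor Tead1 at a distance of 1.25 log2, the complement inhibitor Cd55 at 1.47, the protease inhibitor Serpinb2 at 1.51, the kinase Cdk6 at 1.57 and Hbegf, a growth factor of the EGF family, at 1.59. Their knockdown differences against the same negative control were 3.37 to 4.19 log2, all smaller than that of Edn1. As the neighbours were picked on these same levels, large knockdown differences followed from the choice. Of these, Cd55 was the 1 with an overexpression difference like that of Edn1, at -1.69 log2; the other 4 had -0.17 to -0.74. Nearest to Ece1 were Pyroxd2 at 0.12, the mitochondrial protease Oma1 at 0.14, the inhibin subunit Inha, the squalene synthase Fdft1 and Wdr48, at 0.18 to 0.19. Ece1 varied little, so that small distances are easy to reach there. With 5 arrays no correlation is given.

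**Figure D5:**
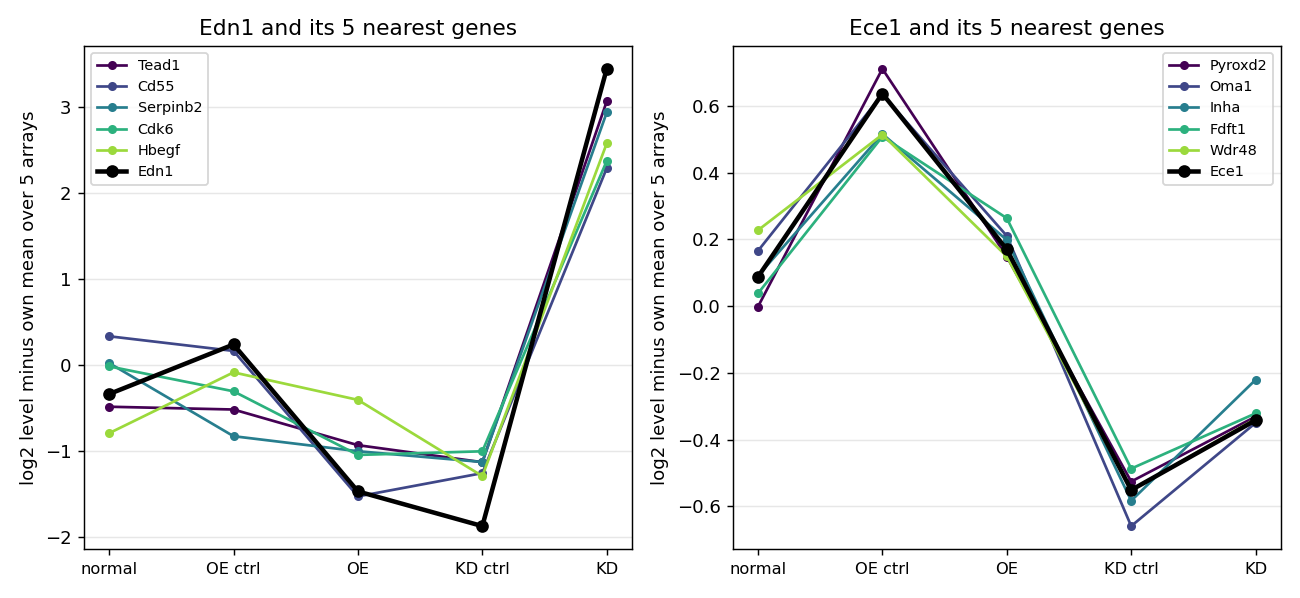
Levels of Edn1 and Ece1 (black) and of the 5 genes nearest to each, minus each gene's mean over the 5 arrays (y axis, log2 units; x axis, the arrays, whose order has no meaning). Edn1 and its neighbours are highest with knockdown, and Ece1 and its neighbours are highest in the overexpression negative control. The neighbours were picked on these same levels, so their likeness follows from the choice.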

How the data were processed

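Total RNA of 5 groups of BRL-3A cells, 1 array each, was labelled with Cy3 and hybridised to Agilent arrays, per the labels' protocols. The deposited scanner files hold background-subtracted intensity values per spot, read with Feature Extraction 11.0.1.1 per the file headers; version 9.1 is named in the submitters' processing notes. A deposited value table is in log2 units, with a median of 6.69 in each column over the probes used and a correlation of 0.990 to 0.999 with the scanner values of the same array, so it was taken as scaled between arrays by the authors, with software not given in the sources used here.

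Control and flagged spots were dropped, the log2 values of a probe's spots averaged, and each array's 75th percentile subtracted. Accessions named 17996 probes, and 12370 had no name here; where a gene had several probes, the one with the highest mean level stood for it. A value not well above background was raised to the lowest level that was, which makes a difference a bound. Calls needed 2.5-fold, and the p threshold of the series' design text could not be applied to 1 array per group. Intervals are 1.96 scanner errors (95%) and cover the spot reading only. The scanner error of a probe with several spots is the root mean square of their errors, not the error of their mean. The call rule was tested on simulated data with changes placed in brighter probes only, so its bounds for dim values were not tested. The simulated noise did not stand for differences between cultures. The members, the gene lists and the naming rule (per list and direction up to 4 called genes, and 5 nearest genes per member) were chosen with earlier results of these data known. Python 3.11.15 and limma 3.58.1 (quantile, cyclic loess and normexp alternatives) were used.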

Additional observations from a re-analysis of the deposited data

How the results depend on the processing

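For Edn1 with knockdown the log2 difference of 5.31 was 5.67 with quantile normalization, 5.62 with scaling on probes above background throughout, 4.62 with normexp (on the median pixel signal, offset 50) and 5.69 in the authors' table, and 3.20 and 3.78 against the other negative control and normal cells; all kept the direction and passed 2.5-fold. Keeping flagged spots, an alternative chosen after seeing the data, gave 5.20. For Edn1 with overexpression, -1.71 became -1.32 with normexp, -1.13 against normal cells and 0.40, the reverse direction, against the other negative control. Genes called with knockdown numbered 2361, and 1435 with normexp, 3691 and 4187 against the other negative control and normal cells, and 4026 and 683 at 2-fold and 4-fold. With overexpression they numbered 321, and 77, 493, 2248, 719 and 74 in the same order. Between the negative controls they numbered 1017, and 388 with normexp, 1974 at 2-fold and 271 at 4-fold. The cause of these shifts was not tested, except that a lower threshold calls more genes by construction. Ednra, Ednrb and Edn3 are limited by signal near background. No paired analysis was possible because each group has 1 array.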
